A study of Mus musculus with 30 samples.

Results

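CiPS WT1 and CiPS WT2 are 2 lines of chemically induced pluripotent stem cells (CiPSC), and here their expression arrays were set against the fibroblasts they were made from and against embryonic stem cells. They are 2 of 11 CiPSC lines among the 30 samples of the series and were chosen by their labels, as the CiPSC of the sample set that the submitters call set 3. That set holds 4 samples, each standing for 2 arrays per the submitters' design text, which does not say whether the arrays came from separate cultures. CiPS WT1 and CiPS WT2 derive from wild-type mouse embryonic fibroblasts (MEF) and carry the treatment label VC6TFMPS+Z, a cocktail of small molecules in place of introduced genes. Untreated WT MEF of the embryo, cultured in serum, are the starting cells, and the untreated embryonic stem cell (ESC) line R1 is the pluripotent standard. Both CiPSC lines and the ESC were kept on feeder layers of mitomycin C-treated MEF, so fibroblast RNA from feeder cells and fibroblast genes expressed by the lines themselves cannot be told apart in these arrays. The 5 sample sets of the series were normalised separately, and within set 3 the median intensity was 225 in every sample.

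Reprogramming of a fibroblast closes a mesenchymal programme and opens a pluripotent one. Mesenchymal cells such as fibroblasts build and remodel the extracellular matrix, pull on it with actin and myosin, and hold their identity through transcription factors of the Prrx, Twist and Tbx families. Pluripotent cells lack most of that matrix, grow as epithelial-like colonies and rely on a network around Pou5f1 and Sox2.

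Several pluripotency factors read close to ESC in both lines. Sox2, a core pluripotency factor, had an intensity of 10188 in CiPS WT1 and 9183 in CiPS WT2, against 94.1 in MEF and 9859 in ESC. Esrrb, an orphan nuclear receptor of the naive network, read 11947 and 12831 in the 2 lines, against 45.1 in MEF and 10473 in ESC. Pou5f1 was the dimmer probe, with 627 and 560 in the lines, against 61.6 in MEF and 422 in ESC. For these 3 genes both lines lay far above MEF and within 2-fold of ESC. Klf4 read 2339 in CiPS WT1 and 1330 in CiPS WT2, against 1547 in MEF and 3297 in ESC. Fgf4 read 5436 and 9322 in the lines, against 38.0 in MEF and 12620 in ESC. CiPS WT2 lay more than 2-fold below ESC for Klf4, and CiPS WT1 did so for Fgf4. Of the 33 genes of the naive pluripotency list, 19 were measured, 16 were called higher in the CiPSC lines than in MEF and none was called against ESC in either direction. Of its 16 members at least 4-fold higher in ESC than in MEF, 10 lay within 2-fold of ESC in both lines. Another 1 lay between MEF and ESC, 1 lay above ESC and for 4 the lines fell on different sides of these limits. Of all genes at least 4-fold higher in ESC than in MEF, 62.7% lay within 2-fold of ESC in both lines. A call here means a Benjamini-Hochberg adjusted p under 0.05 in limma across 14962 genes and probes, with at least a 2-fold difference. Over all of them, 2375 (15.9%) were higher and 2221 (14.8%) lower in the lines than in MEF, while 156 (1.04%) were higher and 50 (0.334%) lower in the lines than in ESC. Nanog, Col1a1, Cdh1 and Epcam are not analysed here.

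The fibroblast markers fell below MEF in both lines, but their sum stayed above ESC. Of 13 fibroblast markers 10 were measured, and their summed intensity was 15784 in CiPS WT1 and 18563 in CiPS WT2, against 133026 in MEF and 1394 in ESC. Both lines stood between MEF and ESC, and they resembled each other closely. Across all genes the Pearson correlation of log2 intensity was 0.982 between the lines, 0.950 and 0.946 between each line and ESC, 0.828 between each line and MEF and 0.776 between MEF and ESC, a description over genes measured in 4 samples. Pdgfra was the marker that stood closest to ESC, and Postn, Prrx1 and Col1a2 stood furthest above it. Macrophage markers, a further cell type in MEF cultures, summed to 905 and 1690 in the lines, against 15225 in MEF and 1586 in ESC over 3 of 9 measured.

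The spread behind these calls is that between the 2 CiPSC lines, with 1 residual degree of freedom moderated over all genes, and MEF and ESC, with 1 sample each, were assumed to vary like the lines. Against ESC, 2821 genes had an unadjusted p under 0.05. With the spread taken from all 30 samples of the series, 59 genes were higher and 16 lower than in ESC. With that spread and without CiPS WT1 the counts were 4 higher and 2 lower, and without CiPS WT2 they were 5 higher and 3 lower. Of 67 genes that the naming rule picked and that were called against ESC, 30 were still called with the spread from all samples, and 5 (Glipr1, Tmem245, Myl9, Tgfb3 and Dnase1) were still called when either line was left out.

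To separate genes that had been reset from those that had not, 1129 genes at least 4-fold higher in MEF than in ESC (MEF-high) were sorted by where each line lay. Both lines were within 2-fold of ESC for 590 of them (52.3%), which are called reset. For 277 (24.5%) both lines were at least 2-fold from ESC and at least 2-fold from MEF, between both cell types. Another 62 (5.49%) were within 2-fold of MEF in both lines, 14 lay below ESC, 3 lay above MEF, and for 183 the lines fell into different classes. Of the 156 genes called higher than ESC, 129 were MEF-high, against 1129 of all 14962 genes and probes. The call and the class use the same single ESC sample, so part of this overlap is built in. These classes are a description of 4 values per gene and rest on a 2-fold boundary. Col4a2 at log2 differences of 1.05 and 1.04 from ESC in CiPS WT1 and CiPS WT2 was just outside the reset class, and B2m at 0.94 and 0.90 was just inside it. Of 83 MEF-high genes with several probes, all probes gave MEF over ESC for 73, and for 21 all gave at least 4-fold and the same class, so the class of a gene depends on its probe; the probe with the highest mean in set 3 stands for the gene.

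**Figure D1:**
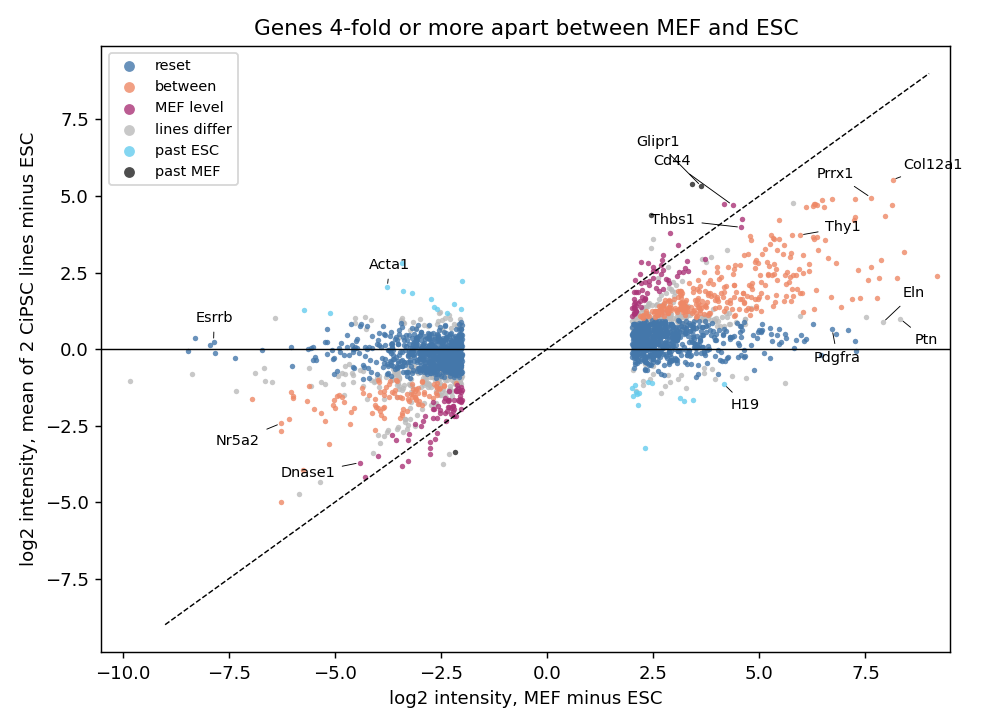
Difference of the CiPSC lines from ESC (y axis, log2 intensity, mean of the 2 lines) against the difference of MEF from ESC (x axis, log2 intensity) for the 1129 MEF-high and 1081 ESC-high genes, 1 point a gene. The solid line is the ESC level and the dashed line the MEF level; colours are the classes. Many strong MEF genes form a cloud between the lines on the right, with Prrx1 and Col12a1 high in it, while others such as Pdgfra lie on the ESC level.

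The larger the MEF to ESC difference, the more often a gene was left between. Among 617 genes that were 4- to 8-fold higher in MEF, 402 were reset and 47 between. Among 124 genes at least 32-fold higher, 27 were reset and 91 (73.4%) between. The boundary is fixed at 2-fold, so a strong gene has more room to lie between. The linear share of the MEF excess over ESC does not have that property. By this measure the stronger genes kept less. The median share was 10.5% in CiPS WT1 and 10.2% in CiPS WT2 for the 617 genes, against 6.05% and 6.67% for the 124. For those 124 genes the tenth percentile was 0.333% and 0.432% and the ninetieth 25.6% and 26%. In both lines 37 of the 124 kept under 2% of the excess and 42 kept at least 10%. The strongest MEF genes were thus kept to very different extents.

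Among mesenchymal transcription factors, 10 of 18 measured genes were MEF-high, of which 4 were between and 6 reset. Over all 1129 MEF-high genes, 24.5% were between and 52.3% reset. The median shares of the list were 6.06% in CiPS WT1 and 9.14% in CiPS WT2, against 9.02% and 8.62% over all MEF-high genes. Prrx1, a homeobox factor of limb and craniofacial mesenchyme on chromosome 1, read 801 in CiPS WT1 and 866 in CiPS WT2, against 5351 in MEF and 27.0 in ESC. The lines were 4.95 ± 0.25 (SE) log2 units above ESC (adjusted p = 0.0128). Twist2, a basic helix-loop-helix factor of dermal and bone precursors, read 740 and 725 in the lines, against 2267 in MEF and 85.0 in ESC, a log2 difference of 3.11 ± 0.24 from ESC (adjusted p = 0.023). Both lines lay well clear of MEF and of ESC for each of these factors. Tbx15, a T-box factor of skeletal and adipose mesenchyme, read 232 and 306 in the lines, against 3104 in MEF and 47.2 in ESC, and was called higher than ESC (adjusted p = 0.0457). Twist1, with 113 and 127 in the lines, against 1115 in MEF and 48.2 in ESC, was not called against ESC (adjusted p = 0.105). The 6 reset members, named after their values were seen, were Prrx2, Snai2, Tbx18, Meis1, Runx1 and Creb3l1. In all, 3 of the 18 were called higher than ESC and none lower, with a median log2 difference of 0.54, against -0.02 over all genes tested. Of all genes tested 1.04% were called higher and 0.334% lower. The 3 called were Prrx1, Twist2 and Tbx15. The Tbx15 call was lost with the spread from all 30 samples.

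Of 19 collagen genes measured, 15 were MEF-high, 10 of which were between and 3 reset, and 6 were called higher than ESC. Over all genes and probes 1.04% were called higher, and 24.5% of all MEF-high genes were between and 52.3% reset. By median share these 15 genes, at 8.3% in both lines, were close to the 9.02% and 8.62% over all MEF-high genes. Col12a1, which coats fibrils of type I collagen, read 1006 in CiPS WT1 and 1109 in CiPS WT2, against 6446 in MEF and 22.9 in ESC. That is 5.53 ± 0.25 log2 units above ESC (adjusted p = 0.0128), from an ESC reading among the dimmest of the set. Col1a2, a chain of type I collagen, read 3093 and 2799 in the lines, against 23851 in MEF and 160 in ESC, which is 12.4% and 11.1% of the MEF excess. Col6a3 and Col6a1, chains of the microfibrillar type VI collagen, were kept at 7.91% and 10.3% for the first and 5.16% and 5.68% for the second. The basement membrane chains Col4a1 and Col4a2 were also kept at 10.2% to 12.6% but were not called against ESC, where they already read 1551 and 2722. The Col6a3 call was lost with the spread from all 30 samples.

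Proteins that decorate or organise the matrix had 13 of 23 MEF-high genes between and 4 reset, and 14 of 27 measured members called higher than ESC. Over all MEF-high genes 24.5% were between and 52.3% reset, and 1.04% of all genes were called higher. The list had median shares of 9.36% and 14.9%, against 9.02% and 8.62% over all MEF-high genes. Postn, a matricellular protein that binds integrins, read 3661 in CiPS WT1 and 4154 in CiPS WT2, against 20008 in MEF and 130 in ESC. The log2 difference from ESC was 4.90 ± 0.23 (adjusted p = 0.0128). Fbln2 and Fbln5, fibulins of elastic fibres and basement membranes, were kept at 31.3% and 33.1% and at 7.10% and 8.62% of the MEF excess. Lox, the oxidase that crosslinks collagen and elastin, read 1070 and 1226 in the lines, against 3156 in MEF and 45.8 in ESC, or 32.9% and 37.9% of the excess. Bgn, the small proteoglycan biglycan, read 4970 and 8490 in the lines, against 49915 in MEF and 329 in ESC. Within the same list other genes were nearly gone. Eln, the elastin of elastic fibres, read 132 and 162 in the lines, against 19219 in MEF and 79.8 in ESC, so 0.272% and 0.427% of the excess remained. Mfap4, a microfibril protein of elastic tissue, kept 1.14% and 1.54%. The calls of Fbln2, Bgn and Mfap4 against ESC were lost with the spread from all 30 samples.

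Enzymes that turn the matrix over, and their inhibitors, were between in 8 of 13 MEF-high cases and reset in 4. Over all MEF-high genes 24.5% were between and 52.3% reset. The median shares of these 13 genes, 8.33% and 8.51%, were close to the 9.02% and 8.62% over all MEF-high genes. Timp2, an inhibitor of matrix metalloproteinases, read 8861 in CiPS WT1 and 9912 in CiPS WT2, against 34643 in MEF and 376 in ESC, which is 4.64 ± 0.22 log2 units above ESC (adjusted p = 0.0128). Timp3 of the same family was kept at 8.95% and 8.22%. Ctsk, a collagen-degrading cysteine protease, read 318 and 321 in the lines, against 1433 in MEF and 33.8 in ESC, and Serpinf1, a secreted serpin, kept 8.33% and 8.51%. For each of these 4 genes the lines differed from each other by at most 0.16 log2 units, and each line differed from ESC by 2.58 or more. The calls of Timp3 and Serpinf1 against ESC were lost with the spread from all 30 samples.

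Surface proteins of stromal cells were between in 11 of 19 MEF-high cases, at the MEF level in 2 and reset in 4. Over all MEF-high genes 24.5% were between, 5.49% at the MEF level and 52.3% reset. Median shares were 11.3% and 11.5% for this list, against 9.02% and 8.62% over all MEF-high genes. Thy1, the surface glycoprotein whose loss is used to follow fibroblast reprogramming, read 4984 in CiPS WT1 and 7189 in CiPS WT2, against 28181 in MEF and 453 in ESC. Its log2 difference from ESC was 3.72 ± 0.30 (adjusted p = 0.0241), a call that was lost with the spread from all 30 samples. Vcam1, an adhesion receptor for leukocytes, kept 11.3% and 11.5% of the excess. The platelet-derived growth factor receptors parted. Pdgfrb read 789 and 713 in the lines, against 13607 in MEF and 212 in ESC, and lay between without passing the test against ESC (adjusted p = 0.0554). Pdgfra read 35.4 and 44.2 in the lines, against 2653 in MEF and 25.2 in ESC, so both lines were within 2-fold of ESC, with 0.385% and 0.723% of the excess remaining.

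Genes of TGF-beta and BMP signalling were between in 8 of 11 MEF-high cases and reset in 1, against 24.5% and 52.3% of all MEF-high genes. Their median shares were 18.5% and 21.4%, against 9.02% and 8.62% over all MEF-high genes. Tgfb3, a ligand of the pathway, read 765 in CiPS WT1 and 977 in CiPS WT2, against 2518 in MEF and 32.1 in ESC, and stood 4.75 ± 0.28 log2 units above ESC (adjusted p = 0.0156). Ltbp2, a matrix protein of the family that binds latent TGF-beta, kept 21.7% and 25.5%, and its call was lost with the spread from all 30 samples. Tgfbr2, the type II receptor, kept 4.28% and 3.31% and was not called against ESC (adjusted p = 0.0751). In this list 5 of 22 measured genes were called higher than ESC and 1 lower, against 1.04% and 0.334% of all genes. Tgfb3 itself kept 29.5% and 38.0%.

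Among lists with at least 6 MEF-high members, contractile genes had the highest median shares, at 38.4% and 41.7% over 9 MEF-high members, against 9.02% and 8.62% over all 1129 MEF-high genes. Of the 9, 3 were between, 3 at the MEF level, 2 reset and 1 above MEF. Tagln, the actin-binding protein transgelin, read 532 in CiPS WT1 and 501 in CiPS WT2, against 1817 in MEF and 47.8 in ESC. Myl9, a regulatory light chain of smooth muscle myosin, read 4664 and 5030 in the lines, against 11477 in MEF and 414 in ESC. Zyx, zyxin of focal adhesions, kept 13.7% and 11.6%. Acta2, smooth muscle actin, chosen after its values were seen, read 45430 and 38679 in the lines, against 59785 in MEF and 8623 in ESC. Myh11, the smooth muscle myosin heavy chain, went past the fibroblasts, at 1390 and 1480 in the lines, against 365 in MEF and 34.1 in ESC, with log2 differences of 1.97 ± 0.25 from MEF (adjusted p = 0.00832) and 5.39 ± 0.25 from ESC (adjusted p = 0.0128). The 2 lines read alike for each of these genes. With the spread from all 30 samples, the calls of Tagln and Zyx against ESC and those of Myh11, Tagln and Glipr1 against MEF were lost.

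**Figure D2:**
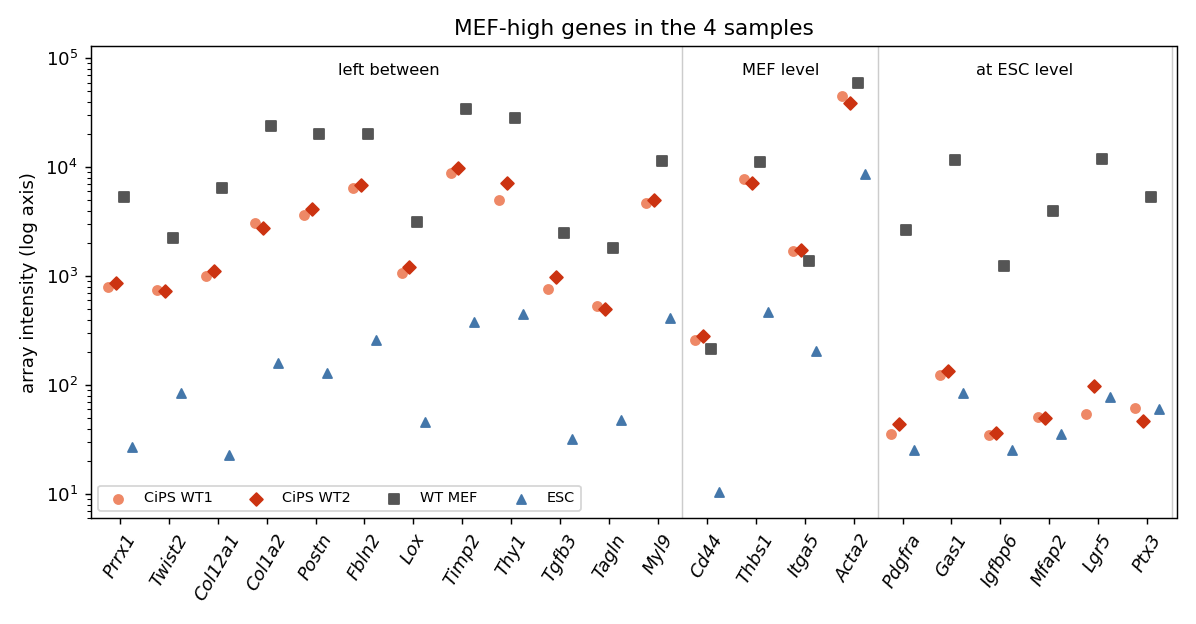
Array intensity (log axis) of 22 MEF-high genes in CiPS WT1, CiPS WT2, WT MEF and ESC, 1 point a sample, in groups left between MEF and ESC, at the MEF level and at the ESC level. Points of the 2 CiPSC lines lie close together for most genes; Prrx1 reads 801 and 866 in the lines, against 5351 in MEF and 27.0 in ESC, and Pdgfra 35.4 and 44.2, against 2653 and 25.2.

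Some other genes that stayed within 2-fold of MEF were of mixed function. Cd44, the hyaluronan receptor, read 260 in CiPS WT1 and 284 in CiPS WT2, against 216 in MEF and 10.4 in ESC. Thbs1, the matricellular thrombospondin that can activate latent TGF-beta, read 7832 and 7116 in the lines, against 11251 in MEF and 474 in ESC, 3.98 ± 0.22 log2 units above ESC (adjusted p = 0.0128). Itga5, a subunit of the fibronectin receptor, read 1715 and 1738 in the lines, against 1380 in MEF and 207 in ESC. For Cd44 and Itga5 both lines read slightly above MEF. Kctd7, Tmem245 and Chst12, a chondroitin sulphotransferase, were also at the MEF level. Glipr1, a gene first described in glioma, lay above MEF, at 2992 and 3133 in the lines, against 947 in MEF and 76.5 in ESC. The fifth percentile of intensity in set 3 was 31.4, so the ESC readings of Cd44, Prrx1, Col12a1 and Tmem245 are among the dimmest values and their folds over ESC are uncertain.

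Several of the strongest MEF genes were reset. Gas1, a growth arrest-specific surface protein of the Hedgehog pathway, read 125 in CiPS WT1 and 136 in CiPS WT2, against 11720 in MEF and 85.4 in ESC, so 0.340% and 0.437% of the MEF excess remained. Mfap2, a microfibril protein, read 50.6 and 50.4 in the lines, against 3971 in MEF and 35.8 in ESC. Lgr5, the R-spondin receptor, read 54.6 and 99 in the lines, against 11972 in MEF and 77.4 in ESC. Each of these lay within 2-fold of ESC in both lines although MEF exceeded ESC by 111-fold or more. Ptx3, an acute-phase pentraxin, and Igfbp6, a binding protein of insulin-like growth factors, were also reset, with MEF at 88.2-fold and 49.0-fold of ESC and shares between -0.263% and 0.948%. Igfbp5 of that family kept 12% and 11.6%, so members of one family parted here too. Growth factors and binding proteins as a list were reset in 5 of 11 MEF-high cases, against 52.3% over all MEF-high genes. Of the others, 1 was between, 1 was at the MEF level and for 4 the lines fell into different classes. The median shares of the list were 2.5% and 1.73%, against 9.02% and 8.62% over all 1129 MEF-high genes. Ptn, the heparin-binding pleiotrophin, read 110 and 151 in the lines, against 20804 in MEF and 65.1 in ESC.

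Macrophage genes had the highest reset share of the 14 lists with at least 6 MEF-high members. A list of 16, longer than the marker list above, had 9 measured, and of its 6 MEF-high genes 5 were reset. For C1qc the lines fell on either side of the boundary. Of all MEF-high genes 52.3% were reset. Fcer1g, the signalling chain of Fc receptors, read 165 in CiPS WT1 and 169 in CiPS WT2, against 7916 in MEF and 136 in ESC. Of 8 MEF-high interferon-induced genes, 4 were reset and 1, the ubiquitin-like modifier Isg15, was between at 1.78% and 2.71% of the excess. None of the 22 measured interferon-induced genes was called against ESC, which with these small shares over all genes says little about the list. Hox genes, which record position along the body axis, were mixed. Of 11 that were MEF-high, 5 were between and 4 reset, with median shares of 13.7% and 14.2%. Over all MEF-high genes 24.5% were between and 52.3% reset, with median shares of 9.02% and 8.62%. Hoxc6 read 648 and 573 in the lines, against 3352 in MEF and 71.5 in ESC, and was called higher than ESC (adjusted p = 0.0242). Both lines lay clear of MEF and of ESC for Hoxc6.

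Imprinted genes, expressed from 1 parental allele, had 5 of 9 MEF-high members at the ESC level and 1 between, close to the 52.3% and 24.5% over all MEF-high genes. H19, a maternally expressed non-coding RNA, read 934 in CiPS WT1 and 786 in CiPS WT2, against 33975 in MEF and 1893 in ESC, so the lines lay below ESC. Cdkn1c, a maternally expressed inhibitor of cyclin-dependent kinases, read 353 and 433 in the lines, against 14789 in MEF and 718 in ESC. Dlk1, a paternally expressed Notch-family ligand, kept 1.74% and 1.18%. None of 21 measured imprinted genes was called against ESC, where 1.04% of all genes were called higher and 0.334% lower. Meg3 read 86.0 and 118 in the lines, against 118 in MEF and 101 in ESC, values close to each other in all 4 samples.

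**Figure D3:**
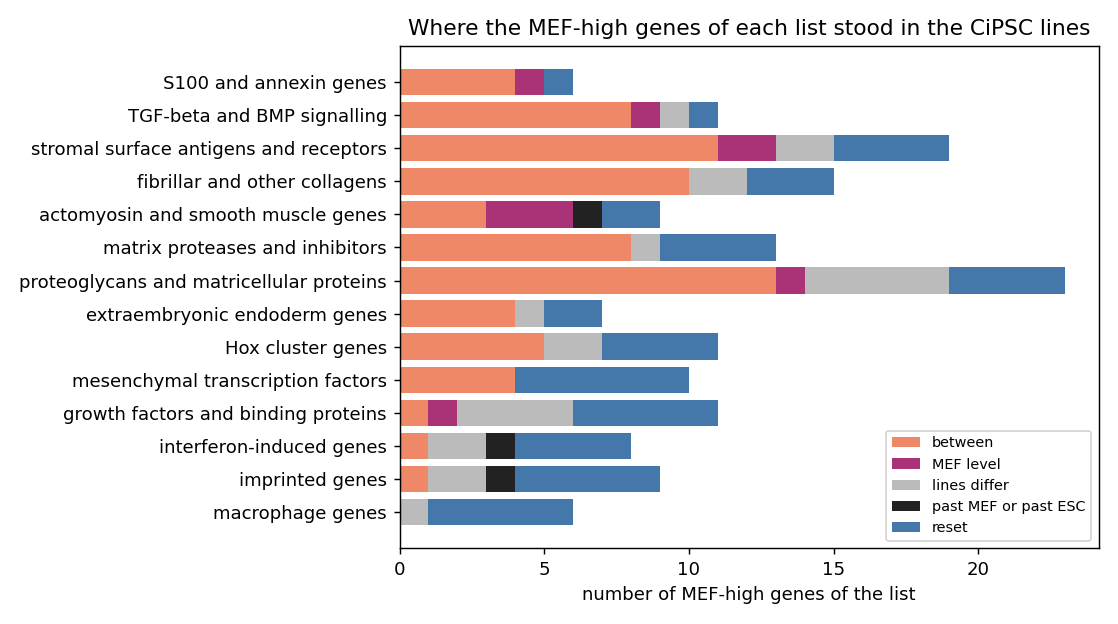
Number of MEF-high genes (x axis) in each class, for the 14 gene lists with at least 6 MEF-high members (y axis). Matrix, surface receptor, TGF-beta and contractile lists hold most of the between and MEF-level genes, while 5 of 6 macrophage genes are reset.

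The promoters of 4 kept genes and 2 reset genes are shown, chosen because their levels in the lines lay so far apart while all 6 were MEF-high. Each run holds 250 bases before and 50 after the start of transcription, read from RefSeq tables of build GRCm38.p6, on the gene's own strand. Capitals mark 1 of 4 motifs found on either strand. These are the binding site of TEAD factors, written GGAATG, and that of AP-1 factors, written TGANTCA. The others are the TATAAA box of core promoters and the CArG box of serum response factor. Prrx1, chr1:163313601-163313900, minus strand, kept between, has a TEAD site that starts 180 bases before the start. Zyx, chr6:42349578-42349877, plus strand, kept between, has an AP-1 site. Myl9, chr2:156775214-156775513, plus strand, kept between, has a CArG box. Cd44, chr2:102901616-102901915, minus strand, at the MEF level, Pdgfra, chr5:75152001-75152300, plus strand, reset, and Gas1, chr13:60177486-60177785, minus strand, reset, have none of the 4 in this window.
Prrx1: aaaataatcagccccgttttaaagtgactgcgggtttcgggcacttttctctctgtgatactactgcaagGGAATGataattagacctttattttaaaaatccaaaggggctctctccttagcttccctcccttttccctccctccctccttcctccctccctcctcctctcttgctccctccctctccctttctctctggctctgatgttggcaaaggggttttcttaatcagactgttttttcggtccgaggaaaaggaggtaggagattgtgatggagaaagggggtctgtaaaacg
Zyx: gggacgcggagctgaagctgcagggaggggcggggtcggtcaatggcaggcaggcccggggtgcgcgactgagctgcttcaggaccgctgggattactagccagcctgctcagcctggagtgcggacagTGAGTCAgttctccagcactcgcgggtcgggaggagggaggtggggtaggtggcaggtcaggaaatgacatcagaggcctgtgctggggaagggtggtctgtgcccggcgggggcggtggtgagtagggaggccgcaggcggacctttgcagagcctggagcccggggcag
Myl9: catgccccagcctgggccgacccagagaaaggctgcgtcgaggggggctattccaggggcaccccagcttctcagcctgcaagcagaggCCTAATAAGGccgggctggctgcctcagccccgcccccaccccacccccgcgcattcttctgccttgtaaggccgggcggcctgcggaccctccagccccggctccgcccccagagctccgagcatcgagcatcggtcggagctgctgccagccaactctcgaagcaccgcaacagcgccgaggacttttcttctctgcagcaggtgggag
Cd44: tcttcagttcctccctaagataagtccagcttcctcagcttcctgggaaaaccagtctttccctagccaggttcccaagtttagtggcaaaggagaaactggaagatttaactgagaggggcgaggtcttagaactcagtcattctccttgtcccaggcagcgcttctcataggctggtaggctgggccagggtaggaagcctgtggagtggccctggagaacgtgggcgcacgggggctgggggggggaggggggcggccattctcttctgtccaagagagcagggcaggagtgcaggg
Pdgfra: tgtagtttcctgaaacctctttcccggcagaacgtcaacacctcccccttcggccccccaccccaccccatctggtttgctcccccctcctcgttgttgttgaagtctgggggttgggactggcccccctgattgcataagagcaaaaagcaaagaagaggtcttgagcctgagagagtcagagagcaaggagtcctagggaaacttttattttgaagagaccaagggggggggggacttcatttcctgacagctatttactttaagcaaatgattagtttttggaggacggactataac
Gas1: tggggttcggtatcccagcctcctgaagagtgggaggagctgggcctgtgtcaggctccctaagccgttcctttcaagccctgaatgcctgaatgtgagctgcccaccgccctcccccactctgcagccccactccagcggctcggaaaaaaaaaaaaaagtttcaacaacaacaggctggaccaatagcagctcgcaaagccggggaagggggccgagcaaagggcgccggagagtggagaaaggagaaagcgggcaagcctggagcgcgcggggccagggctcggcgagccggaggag

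Promoters of the kept and reset MEF-high genes were compared over all genes with 1 promoter in the tables, as a description. Promoters were matched for 187 of 277 between genes and 446 of 590 reset genes. An AP-1 site was present in 8.02% of between promoters, 6.05% of reset promoters, 5.46% of all 10637 promoters of set 3 genes and 7.93% of all 27025 in the table. A TEAD site was present in 13.4% of between, 12.3% of reset and 12.3% of all set 3 promoters, and in 14.6% of the table. A CArG box was present in 4.28% (8 promoters) of between, 1.35% (6 promoters) of reset and 1.35% of all set 3 promoters, and in 1.57% of the table. A TATAAA box was present in 10.2% of between, 9.42% of reset and 8.70% of all set 3 promoters, and in 14.2% of the table. The median number of CpG dinucleotides per promoter was 20 for between, 18 for reset and 19 for all set 3 promoters. The 62 genes at the MEF level had 44 promoters, of which 20.5% held a TEAD site, 4.55% an AP-1 site and 2.27% a CArG box. These shares rest on few promoters, and these windows say nothing about binding.

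On the other side, 1081 genes were at least 4-fold higher in ESC than in MEF (ESC-high). Both lines had reached ESC within 2-fold for 678 of them (62.7%), lay between for 97 (8.97%), stayed at the MEF level for 63 (5.83%), and the lines fell into different classes for 229. The genes called lower than ESC numbered 50, of which 28 were ESC-high, against 1081 of all 14962 genes and probes. Here too the same ESC sample enters the call and the class. Dnase1, a secreted nuclease, read 78.4 in CiPS WT1 and 80.2 in CiPS WT2, against 48.6 in MEF and 1038 in ESC, with a log2 difference from ESC of -3.71 ± 0.25 (adjusted p = 0.0184). Slc13a5, a citrate transporter, read 38.0 and 35.4 in the lines, against 47.9 in MEF and 513 in ESC. It was below ESC in other CiPSC too, at -4.84 to -0.75 log2 units in set 1 and -3.91 in set 5. Clu, the chaperone clusterin, read 312 and 292 in the lines, against 479 in MEF and 3226 in ESC. For these 3 genes both lines read at the MEF level. The ESC of set 3 stood apart for Dnase1, since MEF minus ESC was -4.42 log2 units in set 3, against 0.29 in set 1. C2cd4b and the neurofilament Nefm were at the MEF level too. The calls of Slc13a5, Clu and Nefm against ESC were lost with the spread from all 30 samples.

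Some genes had moved part of the way up. The uncharacterised transcript 2900060B14Rik read 102 in CiPS WT1 and 116 in CiPS WT2, against 45.1 in MEF and 3474 in ESC (log2 difference from ESC -4.99 ± 0.26, adjusted p = 0.0128). Here too MEF minus ESC was larger in set 3, at -6.27, against -1.44 in set 1. Nr5a2, a nuclear receptor able to drive Pou5f1 in mouse cells, read 210 and 325 in the lines, against 18.1 in MEF and 1404 in ESC, and was not called against ESC (adjusted p = 0.0666). Its low reading was not particular to set 3. Nr5a2 stood at -3.19 to -2.11 log2 units from ESC in the CiPSC lines of set 1 and -2.07 in that of set 5. Stag3 and Smc1b, cohesin subunits of meiosis, were between as well. In the CiPSC lines of set 1 they stood at -2.04 to -1.38 and -3.75 to -0.95 log2 units from ESC. Smc1b read 263 and 268 in the lines, against 58.1 in MEF and 1455 in ESC (adjusted p = 0.0367, lost with the spread from all 30 samples). Germline genes as a list were mixed, and of 9 ESC-high members 3 had reached ESC, against 62.7% of all ESC-high genes. Of the others 1 was between, 1 lay above ESC and 4 had lines in different classes. Dazl, an RNA-binding protein of germ cells, read 613 and 783 in the lines, against 15.9 in MEF and 1016 in ESC. Acta1, skeletal muscle actin, went the opposite way and exceeded ESC, at 3436 and 3676 in the lines, against 64.0 in MEF and 871 in ESC (adjusted p = 0.0449, lost with the spread from all 30 samples). Myog, the other measured gene of the 4 skeletal muscle markers, read 73.4 and 77.2 in the lines, against 64.9 in MEF and 61.1 in ESC.

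The lines parted from each other on several epithelial genes. Over all genes the SD of the difference between CiPS WT1 and CiPS WT2 was 0.43 log2 units, 2.80% of genes differed by 2-fold or more, and the shares were 2.13% among MEF-high and 8.88% among ESC-high genes. None of the 277 between genes differed by 2-fold. A gene enters that class only when both lines fall in it, which by construction favours agreement. Of 9 ESC-high epithelial genes, 3 were reset and 6 had lines in different classes, against 62.7% and 21.2% of all ESC-high genes. Krt8, a keratin of simple epithelia, read 474 in CiPS WT1 and 78.9 in CiPS WT2, against 89.6 in MEF and 5188 in ESC, so CiPS WT1 lay between and CiPS WT2 at the MEF level. Cldn6, a claudin of tight junctions, read 2506 and 496 in the lines, against 84.4 in MEF and 2009 in ESC. Cldn7 of the same family read 429 and 104, against 34.9 in MEF and 660 in ESC, and Cgn, cingulin of tight junctions, read 1450 and 234, against 167 in MEF and 1542 in ESC. For each of these 4 genes CiPS WT2 was the lower line by at least 2.04 log2 units. They, and the MEF-high genes below, were named for the largest differences between the lines, so direction and size follow from that choice. Spint2 of the epithelial list was reset in both lines, which differed by 0.25 log2 units. With 1 sample a line the difference between them has no replicate check and was not tested. Among MEF-high genes, Rgcc, a regulator of the cell cycle, read 2136 and 328, against 935 in MEF and 131 in ESC, and Kcns2, a potassium channel subunit, 805 and 47.8, against 240 in MEF and 38.9 in ESC. Scara5, a ferritin receptor of stromal cells, was the higher in CiPS WT2, at 45.8 and 236, against 463 in MEF and 49.1 in ESC, as was the Wnt antagonist Sfrp1, at 1723 and 4845, against 12874 in MEF and 1692 in ESC.

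**Figure D4:**
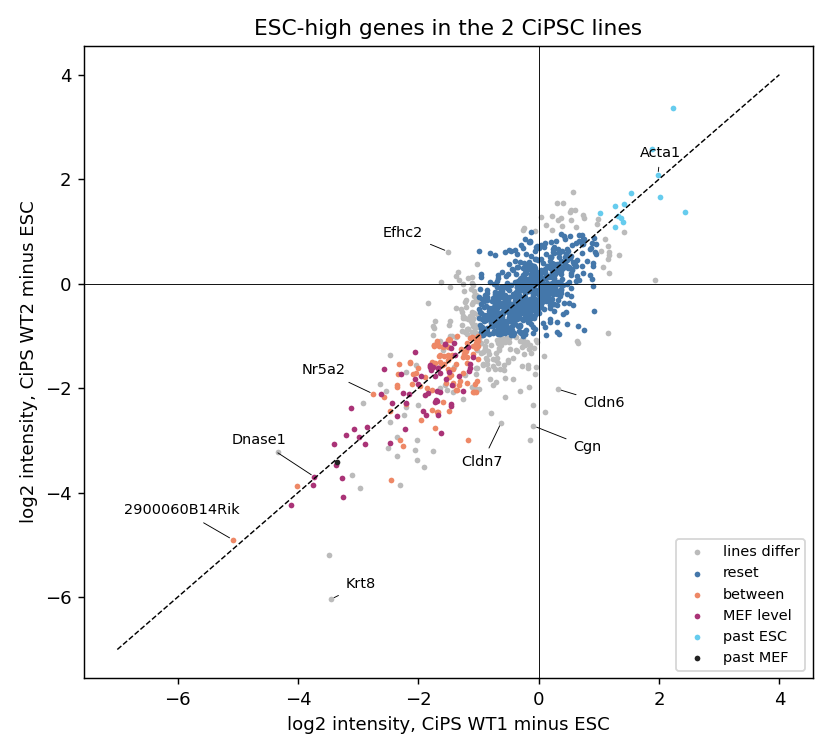
Difference from ESC (log2 intensity) of CiPS WT1 (x axis) and CiPS WT2 (y axis) for 1081 ESC-high genes, 1 point a gene, coloured by class; the dashed line marks equal values. Most genes lie along the line near 0. Krt8, Cldn6, Cldn7 and Cgn lie below it, with Cldn6 at 0.32 in CiPS WT1 and -2.02 in CiPS WT2.

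The residue was set against the other CiPSC of the series, each line against the ESC of its own set. These lines differ in source and treatment. Of the 9 CiPSC lines in sets 1, 2 and 5, 5 came from embryonic fibroblasts, and the other 4 are labelled as from neonatal fibroblasts (MNF), adult lung fibroblasts (MAF) or adipose-derived stem cells (ADSC), with several cocktails. The SKM-FSK lines of set 4 are iPSC with the treatment label F and not CiPSC, and the ESC line was TT2 in set 2 and R1 elsewhere. Set 5 compares poorly with the rest, with a Pearson correlation of MEF minus ESC with set 3 of 0.367 over genes, against 0.773 for set 1 and 0.853 for set 4, and Sox2 at -0.28 in set 5, against -6.71 in set 3. Since the classes were made from set 3, MEF genes were chosen anew as at least 4-fold over ESC in both sets 1 and 4, which gave 595 genes without use of set 3. At least 2-fold above ESC were 32.8% of them in CiPS WT1 and 33.6% in CiPS WT2, against 14.8% to 29.2% in the 4 CiPSC lines of set 1, 10.6% to 30.6% in 4 of set 2, 12.9% in that of set 5 and 7.06% to 7.39% in the 2 SKM-FSK lines of set 4. At a minimum of 16-fold, an alternative chosen after seeing the data, 138 genes gave 57.2% and 60.9% in the WT lines, against 9.42% to 30.4% in set 1, 11.1% to 45.9% in set 2, 12.3% in set 5 and 7.97% in both SKM-FSK lines. The 5 lines from embryonic fibroblasts read 10.6% to 29.2% at 4-fold and 12.3% to 30.4% at 16-fold. CiPS WT1 and CiPS WT2 had the highest share among the lines listed under both minimums, while CiPS34 and MAF CiPS3 came near at 4-fold. The sets were normalised apart, so set, source, treatment and line cannot be told apart. Sets 1 and 4 supplied the genes, and 575 of the 595 and 135 of the 138 were measured in set 2.

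**Figure D5:**
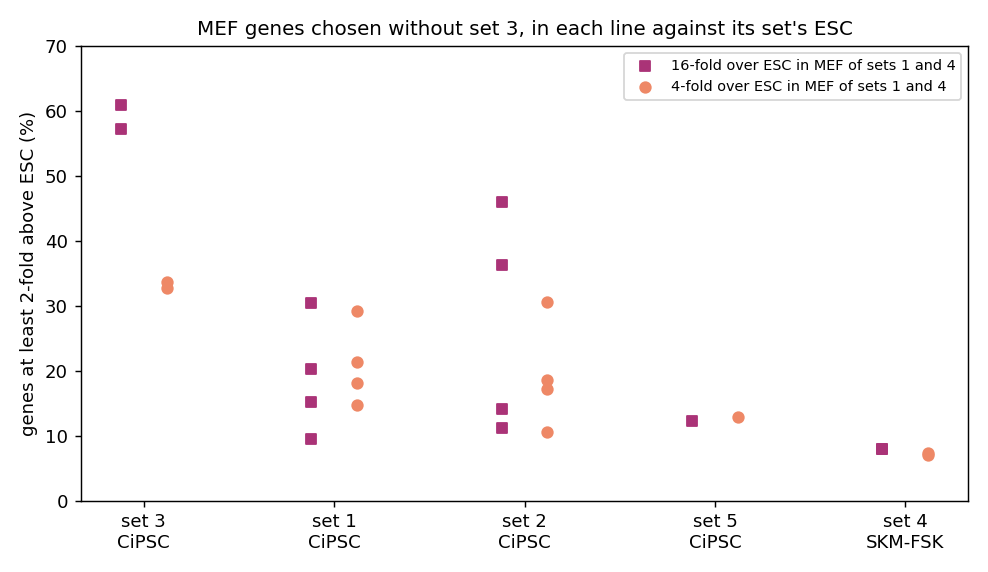
Share of MEF genes at least 2-fold above ESC (y axis, percent) in each CiPSC and SKM-FSK line, 1 point a line, by sample set (x axis), for genes at least 16-fold and at least 4-fold over ESC in the MEF of sets 1 and 4. The 2 set 3 lines read 57.2% and 60.9% for the first choice and 32.8% and 33.6% for the second, above the other lines.

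A test of the difference itself compared CiPSC minus ESC in set 3 with the same difference in set 1, over 12024 genes measured in both. It called 5 genes higher (0.0416%) and 8 lower (0.0665%), and 690 had an unadjusted p under 0.05. The genes called higher were Glipr1, Myl9, Tgfb3, Flrt2, a fibronectin-leucine-rich transmembrane protein, and Ddr2, a collagen receptor, the last 2 named after their values were seen. All 5 are MEF-high, as are 1129 of all 14962 genes and probes of set 3. That class rests on the same set 3 ESC sample as the test. The genes called lower also held MEF-high members. Nod1, named after its values were seen, was reset in set 3 but stood 4.70 to 5.71 log2 units above ESC in set 1. An unnamed MEF-high probe, reset in set 3, stood at 2.81 to 3.21 in set 1. Tgfb3 was 4.75 log2 units above ESC in set 3, against 0.11 to 0.77 in the 4 CiPSC lines of set 1 (difference 4.45 ± 0.70, adjusted p = 0.036). Myl9 was 3.55 above ESC in set 3, against -1.22 to -0.54 in set 1 (difference 4.44 ± 0.49, adjusted p = 0.00393). For both genes each set 3 line lay above every CiPSC line of set 1. The CiPSC line of set 5, which compares poorly, stood 2.38 above its ESC for Myl9 and -0.68 for Tgfb3. For Thy1 the difference was 3.61 ± 1.42 and was not called (adjusted p = 0.834). Among the genes called lower was Dnase1, at -3.71 in set 3, against 0.17 to 0.61 in set 1 (difference -4.13 ± 0.40, adjusted p = 0.00177), the gene whose ESC reading stood apart in set 3. Without CiPS WT1 the counts were 1 higher and 2 lower, and without CiPS WT2 they were 2 higher and 2 lower. Prrx1, Col1a2, Postn and Cd44 had no set 1 value used here.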

How the data were processed

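Total RNA was labelled with Cy5 and hybridised to the Phalanx Mouse OneArray, and the deposited table of array intensity values, which the authors normalised within each of 5 sample sets per the labels' design text, was used as deposited. Each set 3 column stands for 2 arrays, so where nothing says they were separate cultures the p-values measure only the spread between the 2 CiPSC lines. The number of arrays limits the precision. No source used here names a background correction, software or detection call. Of 16339 probes with a set 3 value, 14667 carried 1 gene symbol, none carried several and 1672 had none, in the platform annotation. The probe with the highest mean in set 3 stood for a gene, which left 14962 genes and unnamed probes.

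Intensities were log2 transformed with no offset or filter. Set 3 was fitted with limma 3.58.1 in R 4.3.3 (eBayes with an intensity trend, 3 groups, 1 residual degree of freedom), with Benjamini-Hochberg adjustment over all 14962, called at an adjusted p under 0.05 and 2-fold. Set 3 was compared with set 1 in a fit of all 30 samples with 1 mean per group and set. The procedure was tested on simulated data. Alternatives were the spread from all samples, no trend, quantile normalisation, dropping the lowest 25% of genes, the mean of all probes, an offset, other class limits and leaving out each line. The members and gene lists were chosen with earlier results of these data known. Named genes were the 10 largest called differences each way from MEF and ESC, the largest of the between and MEF-level classes, the largest differences between lines, up to 4 members per list by MEF to ESC difference and up to 2 between members, and 9 fixed genes; exceptions are stated. Promoters came from RefSeq.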

Additional observations from a re-analysis of the deposited data

Results flagged for a closer look

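For 4 genes the difference between CiPSC and ESC in set 3 departed from that in set 1 by a test of the difference itself (limma, all 30 samples) among the genes picked by the naming rule. CiPSC minus ESC in set 3 exceeded that in set 1 by 6.20 log2 units for Glipr1 (adjusted p = 0.00961), 4.45 for Tgfb3 (adjusted p = 0.036) and 4.44 for Myl9 (adjusted p = 0.00393), and fell short of it for Dnase1, at -4.13 (adjusted p = 0.00177). MNF CiPS7, the only CiPSC line of set 1 labelled as from neonatal fibroblasts, was flagged as the lowest of the 4. Of the set 3 between genes, 16.27% (27 of 166) were at least 2-fold above ESC, against 19.28% to 19.88% (32 to 33) in the others. The gap is a few genes, and the CiPSC lines of set 2 ranged from 15.25% to 35.43%. How often chance alone would flag a line was not tested, and the 4 shares rest on the same 166 genes and the same ESC sample.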

How the results depend on the processing

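Against MEF, the main counts of 2375 higher and 2221 lower became 1208 and 1251 with the spread from all 30 samples, and 632 to 636 and 637 to 654 without either line. Against ESC, 156 higher and 50 lower became 59 and 16 with that spread, 4 to 5 and 2 to 3 without either line, and 335 and 164 without the lowest 25% of genes. The count lower than ESC was 90 with quantile normalisation and 93 with the offset. For set 3 against set 1, leaving out either line gave 1 to 2 genes higher and 2 lower.

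The reset share of MEF-high genes (52.3%) became 57.1% for genes chosen in sets 1 and 4, 33.3% at 16-fold there, 36.7% at 8-fold in set 3, 29.2% and 66.6% with limits of 1.5-fold and 2.5-fold, 60.4% with the offset and 58.5% to 59.1% for a single line. The between share (24.5%) became 50.7% at 16-fold there, 44.9% at 8-fold, 40.7% and 16.5% with these limits and 29.7% to 32.1% for a single line. For ESC-high genes the reset share (62.7%) became 50.7%, 49.1%, 37.3% and 75.2% in the same order, 66.1% with the offset and 69.8% to 72.8% for a single line, and the between share (8.97%) became 12%, 20%, 20.1% and 5.00%, and 16.3% to 16.8%. Single lines need no agreement between lines, which by construction raises their shares. No tested difference changed its sign. Reset genes outnumbered between genes among MEF-high genes in the main setting but not at 8-fold, at 16-fold in sets 1 and 4 or with the 1.5-fold limit. Genes higher than MEF outnumbered lower ones in the main fit but not with the spread from all 30 samples, with or without either line. No paired analysis was possible because MEF and ESC have 1 sample each in set 3. Values near the fifth percentile of intensity, 31.4, limit folds over ESC.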

Other observations

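Genes of dividing cells were mostly higher in the lines than in MEF. Of 23 measured cell cycle genes, 14 were called higher in the CiPSC lines than in MEF and 1 lower. Over all genes 15.9% were called higher and 14.8% lower. All 10 ESC-high members of the list were reset, against 62.7% of all ESC-high genes. Aurkb, a mitotic kinase, read 1748 in CiPS WT1 and 1806 in CiPS WT2, against 394 in MEF and 2959 in ESC. The cyclin Ccnd2 was the exception and was left between, at 1154 and 1216 in the lines, against 6991 in MEF and 172 in ESC. Of 16 polycomb and histone methylation genes, 13 were called higher than in MEF, against that 15.9% over all genes. None was called against ESC, where 1.04% of all genes were called higher and 0.334% lower, so this says little about the list. Cbx7, a chromodomain subunit of polycomb complexes, read 7471 and 6975 in the lines, against 166 in MEF and 4048 in ESC.

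Of 10 genes of DNA methylation, 6 were called higher than in MEF, 4 were not called and none was called against ESC, where 1.04% of all genes were called higher and 0.334% lower. Tet1, which oxidises methylcytosine, read 2176 and 1998 in the lines, against 43.2 in MEF and 2043 in ESC. Dnmt3l, a cofactor of de novo methylation, read 1964 and 2921 in the lines, against 13.9 in MEF and 1176 in ESC. Glucose handling also stood at the ESC level for the transporter Slc2a3, at 20958 and 24524 in the lines, against 172 in MEF and 27933 in ESC. Of 7 measured trophoblast genes 1 was called higher than in MEF, close to the 15.9% over all genes.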
